A study of Mus musculus with 48 samples.

Results

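Expression of 10 genes of the endoplasmic reticulum (ER) stress and amino acid stress response was examined in the livers of mice given dichloroacetic acid (DCA). The genes were chosen by symbol: Hspa5, Pdia4, Sdf2l1, Dnajb9, Herpud1, Xbp1, Atf4, Ddit3, Trib3 and Asns. The frozen (FROZ) table listed 10 of the 10 among 11275 genes, and the formalin-fixed paraffin-embedded (FFPE) table listed 8 of the 10 among 6673 genes, without Asns and Dnajb9. In all, 6591 genes were listed in both tables. The animals were male B6C3F1 mice, 4 weeks old, whose drinking water held no DCA (vehicle) or 1.0, 2.0 or 3.5 g/L of it for 6 days. The groups are named here by their daily doses of 198, 313 and 427 mg/kg-d. Each of the 4 dose groups held 6 animals, and each liver gave 1 FROZ and 1 FFPE library, so that 48 libraries came from 24 animals. FROZ pieces and FFPE blocks were taken from overlapping but not identical liver lobes. The measurement was TempO-Seq, in which a pair of detector oligos anneals to a transcript, is ligated and is counted by sequencing. The samples were archival, and FROZ libraries were made from isolated RNA and FFPE libraries from lysed sections.

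The ER folds secreted and membrane proteins, and the liver secretes most of the proteins of blood plasma. When unfolded proteins build up, the sensors IRE1, PERK and ATF6 raise the genes of chaperones, folding enzymes and ER-associated degradation. PERK also phosphorylates eIF2-alpha, as does GCN2 when amino acids are short, and the transcription factor ATF4 is then translated and raises genes of amino acid supply. Hspa5 encodes BiP, the main ER chaperone and an inhibitor of the sensors, and Pdia4 a protein disulfide isomerase. Sdf2l1 encodes a partner of BiP, and Dnajb9 the co-chaperone ERdj4. Herpud1 encodes a membrane protein of the degradation machinery. Xbp1 encodes the transcription factor whose mRNA IRE1 splices, and the deposited gene value does not separate spliced from unspliced mRNA. Ddit3 encodes the transcription factor CHOP, Trib3 a pseudokinase downstream of ATF4 and CHOP, and Asns asparagine synthetase.

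The promoters of the 4 genes that were lower at 427 mg/kg-d in FROZ and of Asns, which was higher at 313 mg/kg-d, were read from RefSeq (GRCm38.p6, from 250 bases before to 50 after the start), where 10 of the 10 genes matched. The ER stress element ERSE (CCAAT and CCACG with 9 free bases between) occurred on either strand in 0.119% of 32851 promoters and in Hspa5 only among the 10. ERSE-II (ATTGG and CCACG with 1 free base between) occurred in 0.0365% and in Herpud1. The core of the unfolded protein response element (TGACGTG) occurred in 2.01% and in Hspa5. The C/EBP-ATF response element (TGATGNAA) occurred in 3.97% of promoters and in Herpud1, Trib3 and Asns. The letters CCACG alone, which ERSE and ERSE-II contain, occurred in 32.8% and in 7 of the 10. The windows below are 5′ to 3′ on the strand of the gene, capitals mark the fixed letters of these motifs, and a match of letters is not evidence that a factor binds. They are shown for these 5 genes only. Of the other called genes, Atf4 held CCACG 156 and 87 bases before its start, and Ddit3 held none of the 5 motifs.
Hspa5, chr2:34771930-34771969, plus strand: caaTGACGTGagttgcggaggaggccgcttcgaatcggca
Hspa5, chr2:34772020-34772049, plus strand: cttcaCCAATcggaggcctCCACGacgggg
Sdf2l1, chr16:17132384-17132503, minus strand: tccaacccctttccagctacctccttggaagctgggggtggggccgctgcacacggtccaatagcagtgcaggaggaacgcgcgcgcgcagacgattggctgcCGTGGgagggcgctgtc
Pdia4, chr6:47813513-47813632, minus strand: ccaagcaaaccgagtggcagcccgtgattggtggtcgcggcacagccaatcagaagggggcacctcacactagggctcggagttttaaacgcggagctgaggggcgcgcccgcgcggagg
Herpud1, chr8:94386299-94386428, plus strand: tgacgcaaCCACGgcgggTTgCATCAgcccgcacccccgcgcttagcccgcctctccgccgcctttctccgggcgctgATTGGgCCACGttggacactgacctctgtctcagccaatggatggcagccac
Asns, chr6:7693216-7693245, minus strand: ggtcccagccacaTGATGaAActtcccgca

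In these windows Hspa5 held the core element 157 bases and an ERSE 65 bases before its start, Herpud1 an ERSE-II 52 bases before its start, and Asns the C/EBP-ATF letters 23 bases before its start. The Pdia4 window held none of the 5 motifs, and its only CCACG lay after the start. The ERSE of Hspa5 and the Asns match lie in exons of GENCODE transcripts that start further upstream. In GENCODE vM21 (GRCm38), Hspa5 spans chr2:34771970-34777547 (plus strand), Pdia4 chr6:47796141-47813430 (minus), Sdf2l1 chr16:17130138-17132383 (minus) and Herpud1 chr8:94386438-94395377 (plus). Xbp1 spans chr11:5520659-5525893 (plus), Atf4 chr15:80255184-80257541 (plus), Ddit3 chr10:127290774-127296288 (plus) and Asns chr6:7675169-7693254 (minus). The name Ddit3 is shared by 2 overlapping loci there, and the larger is given.

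The deposited values were log2(CPM + 1), scaled in each table on its own. The reads on listed genes, recovered from the smallest steps of the values, ranged from 6687000 to 9844000 per FROZ library and from 1832000 to 6012000 per FFPE library. Summed markers of hepatocytes were 22080 to 27862 CPM in FROZ vehicle animals and 19380 to 23600 CPM at 427 mg/kg-d (7 of 7 markers listed, none at 0 in any FROZ library). Summed markers of Kupffer cells and macrophages were 204 to 268 CPM in vehicle animals and 122 to 191 CPM at 427 mg/kg-d (8 of 10 listed). These sums weigh Apoa1 and C1qb most, with medians of 17138 and 134.5 CPM over all FROZ libraries. Markers of pancreatic acinar cells, which are rich in ER, summed to 113.8 CPM in FROZ animal 53 (198 mg/kg-d) and 141.7 CPM in FROZ animal 101 (427 mg/kg-d), against 23.9 CPM or less in every other FROZ library (7 of 12 listed). Markers of B and plasma cells (4 of 10 listed) were also highest in those animals, at 25.0 and 16.8 CPM. In bulk liver, fewer cells of a type and less RNA per cell cannot be told apart. The part of these markers in the results was not tested. Animal 78 (313 mg/kg-d) was the highest of its dose in Sdf2l1, Hspa5 and Pdia4. Values without animals 53, 78 and 101 are given beside the calls they change and some others. This set was chosen after the data were seen. Leaving out the highest animal of a dose enlarges a decrease there, so calls gained without the set are descriptions.

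In FROZ vehicle animals Hspa5 gave the highest probe level of the 10, with a median of 9552 CPM. Herpud1 followed at 450.3 CPM, Sdf2l1 at 261 CPM, Xbp1 at 187 CPM, Pdia4 at 150.5 CPM and Atf4 at 128 CPM. The ranges over 6 animals overlapped between each neighbouring pair from Herpud1 to Atf4. Dnajb9 had a median of 50.8 CPM, below every Atf4 value. Trib3, Ddit3 and Asns were near the low end of the assay, at medians of 3.53, 2.09 and 1.03 CPM. For Asns and Ddit3 these stood for 7 to 37 and 14 to 28 reads per vehicle library. Each level is a count of probe reads by gene and was not scaled by transcript length. The number of probes per gene was not known. The study lowered the reads of abundant probes, and its list of these includes Hspa5 and Atf4, so the order is that of probe counts and not of RNA amounts.

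A gene was called where limma, fitted to all genes of its table, gave a Benjamini-Hochberg FDR below 0.05, and termed a DEG where its fold-change also exceeded 2. At 198 mg/kg-d in FROZ, 0 of the 10 genes were called, where 1.56% of all genes were, and 3 (Herpud1, Dnajb9 and Sdf2l1) were lower at an unadjusted p under 0.05, as 17.1% of all genes were changed in either direction. At 313 mg/kg-d, 2 were higher (Atf4 and Asns) and 3 lower (Sdf2l1, Herpud1 and Ddit3), where 20.5% of all genes were called higher and 6.15% lower. At 427 mg/kg-d, 1 was higher (Atf4) and 4 lower (Hspa5, Pdia4, Sdf2l1 and Herpud1), where 22.7% of all genes were called higher and 7.33% lower. Sdf2l1 and Herpud1 were DEGs at both doses, where 0.887% of all genes at 313 mg/kg-d and 1.24% at 427 mg/kg-d were lower DEGs. The median log2 fold change of the 10 was -0.23, -0.28 and -0.36 at the 3 doses, against 0.07, 0.11 and 0.10 over all genes. Comparisons with the vehicle share the same 6 control animals. The calls depended on how libraries were scaled. When each library was rescaled by the median ratio of its genes (those with a mean of at least 10 CPM) to their means over libraries, the medians over all genes moved to -0.0043 at 313 mg/kg-d and -0.015 at 427 mg/kg-d. The split of all genes called at 427 mg/kg-d then moved from 2565 higher and 826 lower to 1351 higher and 1492 lower, and at 313 mg/kg-d from 2317 and 693 to 1167 and 1217. At 198 mg/kg-d it moved from 126 and 50 to 31 and 92. Under this scaling 1 of the 10 genes was higher and 5 lower at 313 mg/kg-d, and 0 were higher and 5 lower at 427 mg/kg-d.

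**Figure D1:**
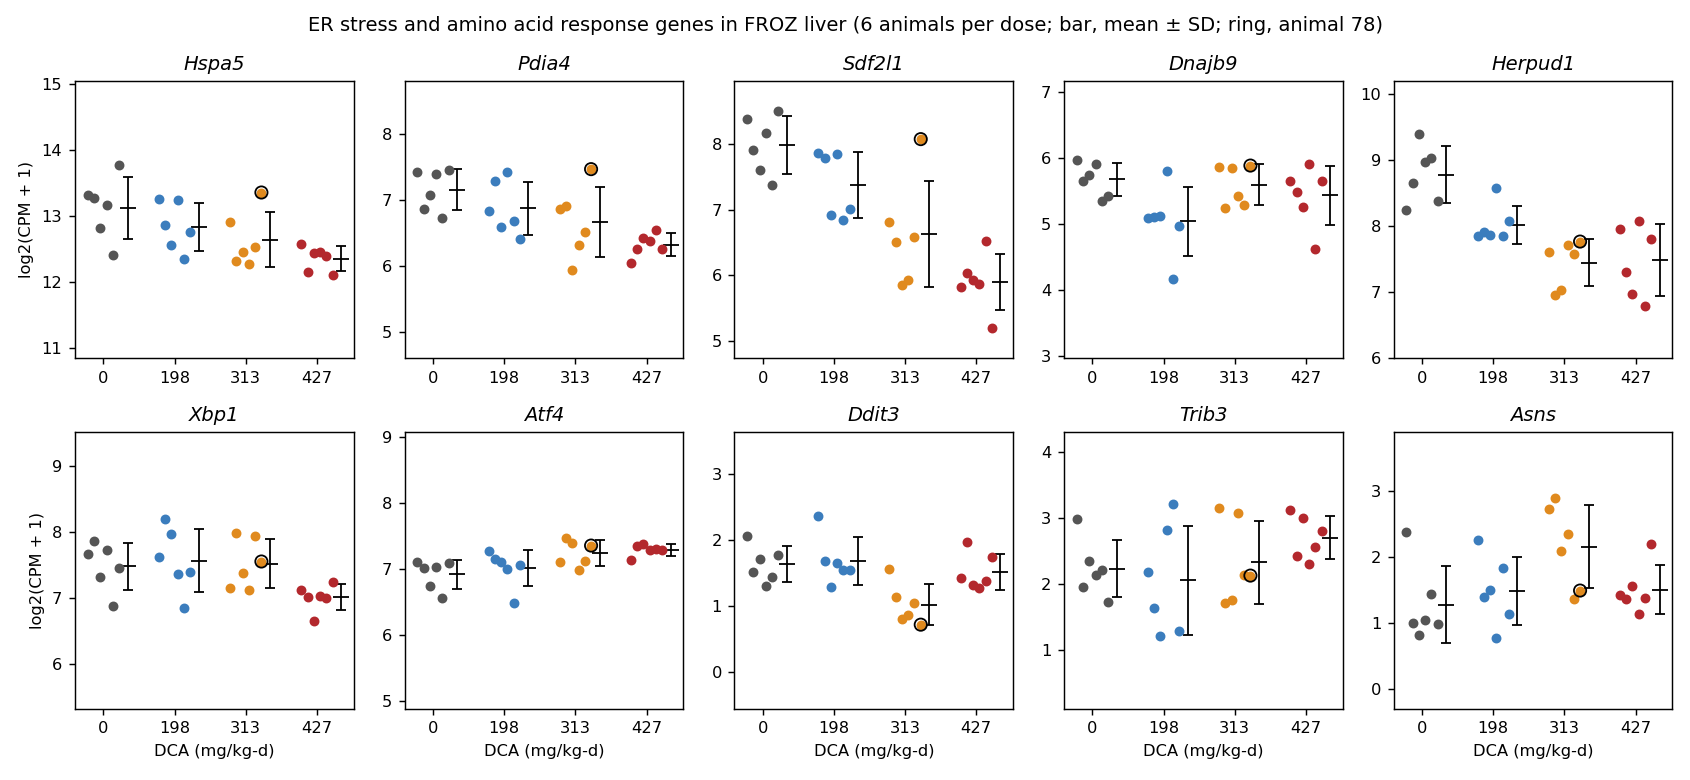
Level of each gene in the 24 FROZ libraries as log2(CPM + 1) on the y axis, by dose of DCA in mg/kg-d on the x axis. Points are animals, bars are the mean ± SD of 6 animals, the ring marks animal 78, and every panel spans the same number of log2 units. Sdf2l1 and Herpud1 descended furthest, with every animal at 427 mg/kg-d below every vehicle animal, and Atf4 lay above every vehicle animal at that dose.

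Of the 4 ER chaperone and folding genes, Sdf2l1, Pdia4 and Hspa5 were lower at 427 mg/kg-d and Dnajb9 did not pass the test. Sdf2l1 had the largest decrease of the 10 genes. Sdf2l1 measured 164, 261 and 358 CPM in the lowest, median and highest FROZ vehicle animal, 114, 174 and 230 at 198 mg/kg-d, 56.8, 92.1 and 267 at 313 mg/kg-d, and 35.97, 58.9 and 90.6 at 427 mg/kg-d. All 6 animals at 427 mg/kg-d and 5 of 6 at 313 mg/kg-d were below every vehicle animal, and the exception was animal 78. The log2 fold change of Sdf2l1 was -1.36 ± 0.28 (SE, n = 6 per group) at 313 mg/kg-d (limma FDR 0.00082) and -2.08 ± 0.28 at 427 mg/kg-d (FDR 2.6e-06), that is 4.23-fold lower. Without animals 53, 78 and 101 these were -1.65 and -2.21, both called. At 198 mg/kg-d Sdf2l1 differed by -0.61 ± 0.28 (FDR 0.27), which did not pass the test.

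Hspa5, the BiP gene, measured 5437, 9552 and 14095 CPM in the lowest, median and highest vehicle animal and 4444, 5492 and 6148 CPM at 427 mg/kg-d. Of the animals at that dose, 3 of 6 were below every vehicle animal. The SD of its log2 level was 0.47 in vehicle animals and 0.18 at 427 mg/kg-d. The log2 fold change was -0.77 ± 0.20 at 427 mg/kg-d (FDR 0.0045) and -0.48 ± 0.20 at 313 mg/kg-d (FDR 0.078), and the latter was -0.63 (FDR 0.015) without animals 53, 78 and 101. Pdia4, the disulfide isomerase gene, measured 105, 150.5 and 175 CPM in vehicle animals and 64.8, 79.0 and 92.5 CPM at 427 mg/kg-d. All 6 animals at 427 mg/kg-d were below every vehicle animal. Its log2 fold change was -0.84 ± 0.20 (FDR 0.0017), and -0.49 ± 0.20 (FDR 0.064) at 313 mg/kg-d, where it was -0.65 (FDR 0.0098) without those 3 animals. Of those, only animal 78 was in the groups compared at 313 mg/kg-d. It was the highest of its dose in Hspa5 and Pdia4, so larger decreases without it follow from that choice.

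Herpud1, of the degradation machinery, was lower from the middle dose on. It measured 302, 450.3 and 675 CPM in vehicle animals, 228, 236 and 382 CPM at 198 mg/kg-d, 123, 192 and 216 CPM at 313 mg/kg-d and 110, 190 and 269 CPM at 427 mg/kg-d. Every animal at 313 and 427 mg/kg-d was below every vehicle animal, animal 78 included, as were 5 of 6 at 198 mg/kg-d. The log2 fold change was -1.34 ± 0.21 at 313 mg/kg-d (FDR 3.7e-05) and -1.30 ± 0.21 at 427 mg/kg-d (FDR 3.3e-05). At 198 mg/kg-d it was -0.76 ± 0.21 (FDR 0.063), and this passed the test under median-ratio scaling (-0.84, FDR 0.047) and among genes of at least 10 CPM (-0.76, FDR 0.043).

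Dnajb9, the ERdj4 gene, did not pass the test at any dose. It measured 39.9, 50.8 and 61.8 CPM in vehicle animals, 16.9, 33.4 and 54.6 CPM at 198 mg/kg-d, and 23.6, 46.5 and 59.3 CPM at 427 mg/kg-d. Its log2 difference from the vehicle was -0.63 ± 0.21 at 198 mg/kg-d (FDR 0.10), -0.08 ± 0.21 at 313 mg/kg-d and -0.24 ± 0.21 at 427 mg/kg-d. The last was -0.082 without animal 101, the lowest of its dose. With 1 animal left out, the value at 198 mg/kg-d ranged from -0.79 to -0.46 (FDR up to 0.25). Its largest difference was thus at the lowest dose, and 5 of 6 animals there were below every vehicle animal. Xbp1 measured 116, 187 and 231 CPM in vehicle animals and 98.9, 129 and 150.1 CPM at 427 mg/kg-d. The log2 difference was -0.47 ± 0.19 (95% interval -0.86 to -0.085, FDR 0.059), and 1 of 6 animals was below every vehicle animal. It passed the test under 4 of the 7 other processing choices tried, among them median-ratio scaling (-0.63, FDR 0.018).

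The transcription factor and amino acid genes did not share a direction. Atf4 measured 93.4, 128 and 137 CPM in vehicle animals, 125, 150 and 177 CPM at 313 mg/kg-d and 139, 156 and 164 CPM at 427 mg/kg-d. All 6 animals at 427 mg/kg-d were above every vehicle animal, and 4 of 6 at 313 mg/kg-d were. The log2 fold change was 0.32 ± 0.11 at 313 mg/kg-d (FDR 0.039) and 0.37 ± 0.11 at 427 mg/kg-d (FDR 0.015). Under median-ratio scaling these were 0.18 (FDR 0.31) and 0.21 (FDR 0.20), so neither call held. The call at 313 mg/kg-d was also lost without animal 5, 7, 74, 75 or 78 (FDR up to 0.12 over the leave-one-out fits), and that at 427 mg/kg-d without animal 7 (FDR 0.051).

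Asns, the asparagine synthetase gene, measured 0.762, 1.03 and 4.24 CPM in vehicle animals, 1.59, 3.71 and 6.50 CPM at 313 mg/kg-d and 1.20, 1.65 and 3.61 CPM at 427 mg/kg-d. Its log2 fold change was 0.88 ± 0.28 at 313 mg/kg-d (FDR 0.020) and 0.23 ± 0.28 at 427 mg/kg-d (FDR 0.58). Of the animals at 313 mg/kg-d, 2 of 6 were above every vehicle animal, and the call was lost without animal 73 or 74 (FDR up to 0.063). The highest dose was thus not the one with the highest level. Trib3 measured 2.33, 3.53 and 6.99 CPM in vehicle animals and 3.95, 5.45 and 7.69 CPM at 427 mg/kg-d, and the log2 difference of 0.47 ± 0.30 (FDR 0.26) did not pass the test.

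Ddit3, the CHOP gene, measured 1.49, 2.09 and 3.21 CPM in vehicle animals, 0.651, 0.944 and 1.96 CPM at 313 mg/kg-d and 1.44, 1.65 and 2.92 CPM at 427 mg/kg-d. These were 14 to 28, 5 to 16 and 12 to 26 reads per library. Of the animals at that middle dose, 5 of 6 were below every vehicle animal, with a log2 fold change of -0.62 ± 0.17 (FDR 0.0095). At 427 mg/kg-d the difference was -0.12 ± 0.17 (FDR 0.65). Fold changes of such low genes on the log2(CPM + 1) scale understate the change, and for Ddit3 at 313 mg/kg-d the value was -0.99 with an offset of 0.1 CPM and -0.24 with 5 CPM, each called.

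Neighbouring doses were also compared in FROZ. From 198 to 313 mg/kg-d, 1 of the 10 genes was called, Ddit3 at -0.66 ± 0.17 (FDR 0.013), where 3.65% of all genes were called lower. Over all genes 908 were higher and 411 lower on this step, and 639 and 591 under median-ratio scaling. Sdf2l1 differed by -0.75 ± 0.28 (FDR 0.086) on that step, and by -1.14 (FDR 0.0017) without animals 53, 78 and 101, when Sdf2l1, Herpud1 and Ddit3 were called lower. Herpud1 differed by -0.58 ± 0.21 (FDR 0.077), Dnajb9 by 0.55 ± 0.21 (FDR 0.080) and Asns by 0.67 ± 0.28 (FDR 0.12). Dnajb9 passed the test without animal 52 (0.70, FDR 0.021) and was 0.32 (FDR 0.23) without animals 53, 78 and 101. From 313 to 427 mg/kg-d, 0 of the 10 genes were called, where 3.07% of all genes were called in either direction, and 4 had an unadjusted p under 0.05, as 17.5% of all genes did. These 4 were Sdf2l1 (-0.72 ± 0.28), Xbp1 (-0.51 ± 0.19), Asns (-0.65 ± 0.28) and Ddit3 (0.50 ± 0.17). The Sdf2l1 value was -0.44 without animal 78 and -0.56 without animals 53, 78 and 101.

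The FFPE blocks of the same livers were tested in the same way. At 198 mg/kg-d, 0 of the 8 listed genes were called, where 0.0599% of all genes were. At an unadjusted p under 0.05 there was 1 (Hspa5, -0.75 ± 0.23), as there were 11.8% of all genes in either direction. At 313 mg/kg-d, 1 was lower, Herpud1, where 0.315% of all genes were called lower. At 427 mg/kg-d, 3 were lower, Hspa5, Sdf2l1 and Herpud1, where 0.869% of all genes were called lower. All 3 were DEGs, where 0.584% of all genes were lower DEGs. The median log2 fold change of the 8 genes was -0.65, -0.82 and -0.87 at the 3 doses, against -0.19, -0.12 and 0.18 over all genes. Under median-ratio scaling the last became 0.062, and the split of all genes called at 427 mg/kg-d moved from 103 higher and 58 lower to 84 and 82. Depth was uneven between the FFPE groups. Listed genes at 0 per library numbered 132 to 793 in vehicle animals and 65 to 250 at 427 mg/kg-d. They numbered 153 to 1587 at 198 mg/kg-d and 163 to 1443 at 313 mg/kg-d. The fewest reads, 1832000, were in animal 49 (198 mg/kg-d). The part of depth in the FFPE comparisons was not tested.

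In FFPE Sdf2l1 measured 292, 603 and 860 CPM in the lowest, median and highest vehicle animal and 43.0, 123 and 172 CPM at 427 mg/kg-d. Hspa5 measured 9829, 13505 and 27175 CPM in vehicle animals and 5562, 6447 and 8666 CPM at that dose. Herpud1 measured 142, 240 and 381 CPM and 54.2, 70.9 and 115 CPM. For each of these genes, and for Pdia4, all 6 animals at 427 mg/kg-d were below every vehicle animal. In the same FFPE libraries, summed hepatocyte markers (6 of 7 listed) were 38577 to 51133 CPM in vehicle animals and 27064 to 31975 CPM at 427 mg/kg-d, with no overlap. Summed Kupffer cell and macrophage markers (5 of 10 listed) were 262 to 411 CPM and 149 to 252 CPM, also with no overlap. Over all FFPE libraries the largest hepatocyte marker was Apoa1 (median 26778 CPM), followed by Alb (8251 CPM). The largest Kupffer cell and macrophage marker was C1qb (174 CPM), followed by Csf1r (36.4 CPM). The sums thus weigh Apoa1 and C1qb most and do not show a change shared by all markers. The part of either sum in the decreases was not tested. The log2 fold changes at 427 mg/kg-d were -2.25 ± 0.41 for Sdf2l1 (FDR 0.00063), -1.10 ± 0.23 for Hspa5 (FDR 0.0034) and -1.57 ± 0.34 for Herpud1 (FDR 0.0048). Pdia4 differed by -1.01 ± 0.33 (FDR 0.13) and Xbp1 by -0.73 ± 0.24 (FDR 0.14), and both passed the test when only the groups compared entered the fit or libraries were weighted by quality. The call for Hspa5 was lost with a variance prior without trend (FDR 0.060).

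At 313 mg/kg-d in FFPE, Herpud1 measured 29.1, 123 and 163 CPM, with 5 of 6 animals below every vehicle animal, and a log2 fold change of -1.34 ± 0.34 (FDR 0.037). The call was lost without animal 3, 4, 5, 6, 7, 73 or 74 (FDR up to 0.14), with a variance prior without trend (FDR 0.11) and with only the groups compared in the fit (FDR 0.092). Without animals 53, 78 and 101 it was -1.51 (FDR 0.012), and Sdf2l1 moved from -1.40 ± 0.41 (FDR 0.098) to -1.71 (FDR 0.0016). Atf4 did not pass the test in FFPE, at 0.30 ± 0.28 for 427 mg/kg-d.

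Ddit3 and Trib3 varied widely in FFPE, and neither was called at any dose. Ddit3 ranged from 13.1 to 90.8 CPM in vehicle animals and was listed at 0 in 1 animal at 198 and 1 at 313 mg/kg-d. Trib3 ranged from 19.0 to 73.3 CPM in vehicle animals and was listed at 0 in 2, 1 and 1 animals at the 3 doses. The 95% interval of the log2 fold change at 427 mg/kg-d ran from -2.39 to 1.56 for Ddit3 and from -2.93 to 1.72 for Trib3. FFPE libraries held 65 to 1587 listed genes at 0, against 12 to 61 in FROZ, and a 0 says only that the gene is listed at 0. Animal 49 (198 mg/kg-d), at 0 for both Ddit3 and Trib3, had 1587 listed genes at 0. Animal 73 (313 mg/kg-d), at 0 for Trib3, had 1443, and animal 101 (427 mg/kg-d), also at 0 for Trib3, had 250.

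**Figure D2:**
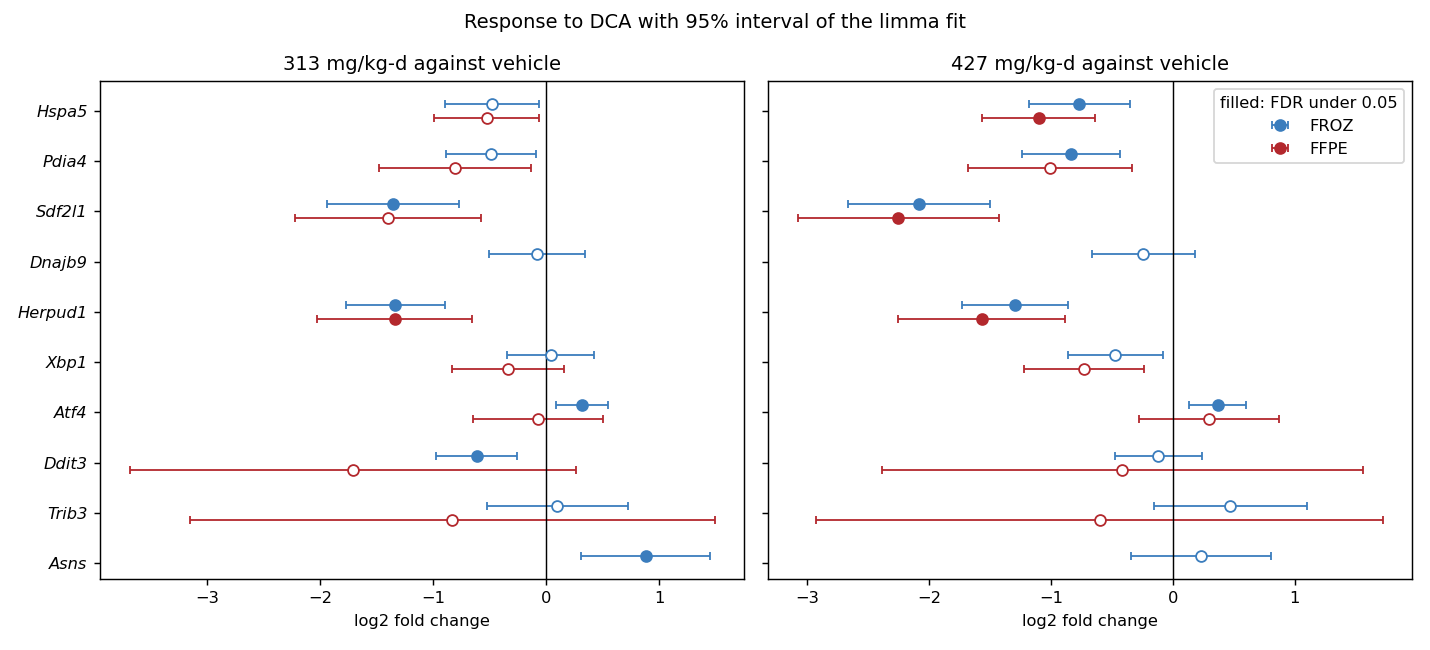
Log2 fold change against the vehicle (x axis) of each gene (y axis) at 313 and 427 mg/kg-d, with the 95% interval of the limma fit, in FROZ (blue) and FFPE (red). Filled points passed an FDR of 0.05, and Dnajb9 and Asns have no FFPE point. Sdf2l1 and Herpud1 lay furthest below 0 in both preservations at 427 mg/kg-d, and the FFPE intervals of Ddit3 and Trib3 were the widest.

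Whether the response to DCA differed between FFPE and FROZ was tested on what remained after an animal's FROZ value was taken from its FFPE value. At 198, 313 and 427 mg/kg-d, 0 of the 8 genes were called by limma, where 0.0303%, 0% and 0.0303% of 6591 genes were. At an unadjusted p under 0.05 the counts were 3, 0 and 0 of 8, where 12.0%, 8.19% and 2.38% of all genes were. The 3 at 198 mg/kg-d were Hspa5 (-0.47 ± 0.20), Xbp1 (-0.54 ± 0.21) and Atf4 (-0.62 ± 0.26). The median difference over all genes was -0.27 at that dose. At 427 mg/kg-d the difference of the log2 fold changes was -0.17 for Sdf2l1 (95% interval -0.83 to 0.48), -0.33 for Hspa5 (-0.75 to 0.084) and -0.27 for Herpud1 (-0.92 to 0.37). Differences of either sign inside these intervals remain compatible with the data from 6 animals per group, so an equal response was not shown.

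Animals of the same dose also differed from each other, and Hspa5, Pdia4 and Sdf2l1 did so together. After dose means were removed, Pearson's r over the 24 FROZ libraries was 0.85 between Pdia4 and Sdf2l1 (Spearman's rho 0.81), 0.82 between Hspa5 and Sdf2l1 (rho 0.80) and 0.63 between Hspa5 and Pdia4 (rho 0.56). Without animal 78 these were 0.79, 0.77 and 0.53. For Herpud1, also lower at both doses, r was -0.12 with Sdf2l1 (rho -0.18), -0.016 with Hspa5 (rho 0.010) and 0.011 with Pdia4 (rho -0.078). Its highest r was 0.52 with Dnajb9 (rho 0.44). Dnajb9 itself had an r of 0.43 with Hspa5 (rho 0.47), 0.23 with Pdia4 (rho 0.29) and 0.19 with Sdf2l1 (rho 0.20). For Atf4, r was 0.53 with Hspa5 (rho 0.41), 0.46 with Sdf2l1 (rho 0.43) and 0.33 with Pdia4 (rho 0.43). Xbp1 and Atf4 had an r of 0.66 (rho 0.55), which was 0.41 without the 2 animals farthest from the median of Xbp1, and Atf4 and Trib3 of -0.56 (rho -0.49). These values are descriptions over points that share the library, its depth and its scaling.

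FROZ and FFPE values of the same liver were then set side by side. With dose means removed, the r between the FROZ and FFPE value of an animal was 0.73 for Sdf2l1 (rho 0.73), 0.68 for Xbp1 (rho 0.70), 0.57 for Hspa5 (rho 0.44), 0.51 for Atf4 (rho 0.30), 0.45 for Herpud1 (rho 0.60) and 0.40 for Pdia4 (rho 0.44). It was 0.12 for Trib3 (rho 0.20) and -0.066 for Ddit3 (rho 0.084), and the median over all 6591 genes was 0.087. The r of Sdf2l1 lay above that of 99.5% of the genes. Without the 2 animals farthest from the median, r was 0.67 for Sdf2l1, 0.70 for Xbp1, 0.40 for Hspa5, 0.39 for Herpud1, 0.25 for Pdia4 and 0.23 for Atf4. Without animal 78 alone it was 0.26 for Pdia4 and 0.45 for Hspa5.

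Animal 78 (313 mg/kg-d) had Hspa5 and Sdf2l1 levels inside the vehicle range in both preservations, and the highest of its dose. Its distance from the other 5 did not pass Dixon's test in any of the 10 genes, with the largest ratio, 0.57 for FROZ Sdf2l1, under the 95% critical value. On the log2(CPM + 1) scale its FROZ Sdf2l1 was 8.07, where the other 5 animals of its dose lay between 5.85 and 6.81 and the vehicle animals between 7.36 and 8.49. Its FFPE Sdf2l1 was 9.20, against 6.72 to 7.92 in the other 5 animals and 8.19 to 9.75 in vehicle animals. Its Hspa5 was 13.4 in FROZ (others 12.3 to 12.9) and 14.2 in FFPE (others 12.8 to 13.8). Its Pdia4 was 7.46 in FROZ (others 5.93 to 6.90), above every vehicle animal, and 8.81 in FFPE (others 6.32 to 8.43). Its FROZ Herpud1, at 7.76, lay below the vehicle range of 8.24 to 9.40 and was close to the highest of the other 5 (7.72). Its FFPE Herpud1, at 7.36, lay inside the vehicle range of 7.16 to 8.58. Its FROZ Atf4, at 7.35, lay above the vehicle range of 6.56 to 7.11. Its FROZ Ddit3, at 0.72, lay below that of 1.31 to 2.07, and its FROZ Dnajb9, Xbp1, Trib3 and Asns lay inside theirs. Acot1, an acyl-CoA thioesterase gene named after its values were seen, was 5.04 in FROZ animal 78, against 7.34 to 8.73 in the other 5 animals and 3.04 to 4.12 in vehicle animals. In FFPE Acot1 was 6.13, against 7.68 to 9.10 in the others and up to 6.14 in vehicle animals. The relation of Acot1 to the chaperone levels of animal 78 was not tested.

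**Figure D3:**
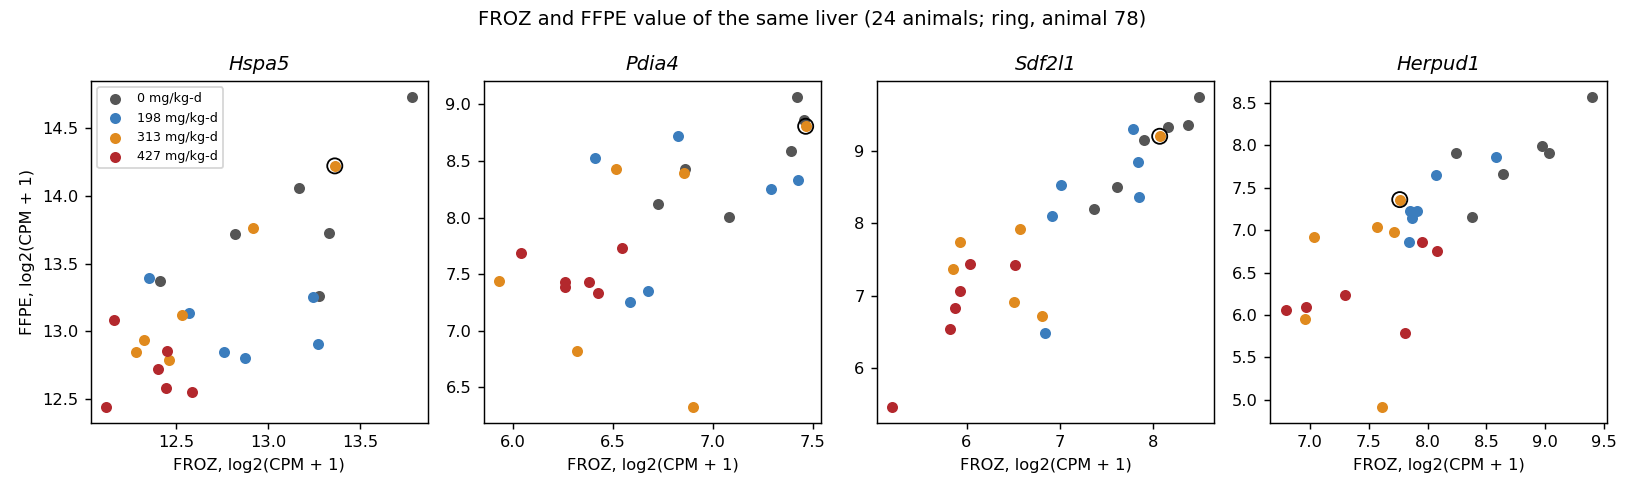
FFPE value (y axis) against FROZ value (x axis) of the same liver for Hspa5, Pdia4, Sdf2l1 and Herpud1, both as log2(CPM + 1), with 24 animals coloured by dose and animal 78 ringed. For Hspa5 and Sdf2l1 the ringed animal lies among the vehicle animals, for Pdia4 at the upper end of their FROZ range, and at 427 mg/kg-d the animals lie to the lower left.

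Genes of 6 pathway lists were read from the same FROZ fit, with 131 listed genes in all and without the 10 above. At 427 mg/kg-d 40 were called, 18 higher and 22 lower, where 22.7% of all genes were called higher and 7.33% lower. The lists were written with earlier results of these data known, so their counts are descriptions. ER chaperones and folding enzymes were lower at 427 mg/kg-d in 15 of 24 listed genes and higher in 0, where 7.33% of all genes were called lower. The median log2 fold change of this list was -0.42, against 0.10 over all genes, and 24 of 24 genes were below that median. At 313 mg/kg-d, 9 of 24 were lower and 0 higher, where 6.15% of all genes were called lower and 20.5% higher. At 198 mg/kg-d 0 were called, where 1.56% of all genes were. At 427 mg/kg-d the largest decreases were in Creld2, an ER protein raised by ER stress (-1.10 ± 0.33, FDR 0.013), Pdia6 (-1.05 ± 0.13, FDR 1.0e-06) and Pdia3 (-0.88 ± 0.14, FDR 1.7e-05), both disulfide isomerases. The highest Pdia6 value at 427 mg/kg-d was 8.26 and the lowest vehicle value 8.81 on the log2 scale. For Creld2 the groups overlapped, at 8.05 to 8.94 against 8.37 to 10.7. Animal 78 had 10.46 for Creld2, near the highest vehicle animal, and 8.90 for Pdia6.

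Genes of ER-associated degradation were lower in 3 of 22 and higher in 2, where 7.33% of all genes were called lower and 22.7% higher, with a median of -0.088. Syvn1, the ubiquitin ligase HRD1 (-0.84 ± 0.22, FDR 0.0038), its partner Sel1l (-0.74 ± 0.12, FDR 3.9e-05) and the lectin gene Os9 (-0.53 ± 0.15, FDR 0.0084) were lower. Os9 was low, with a mean vehicle level of 1.43 on the log2 scale. Its groups overlapped, with a vehicle minimum of 1.25 and a maximum of 1.30 at 427 mg/kg-d, as did those of Syvn1 (7.34 and 7.46). Nploc4, a cofactor of the p97 ATPase (0.41 ± 0.093), and Ubxn4 (0.33 ± 0.092) were higher. Genes of translocation and secretory transport linked to XBP1 were lower in 3 of 25 and higher in 1, beside the same 7.33% and 22.7% of all genes, with a median of -0.063. The lower ones were Ssr4, of the translocon-associated protein complex (-0.66 ± 0.099), Spcs3, of the signal peptidase (-0.46 ± 0.088), and the KDEL receptor gene Kdelr2 (-0.26 ± 0.089), and the higher one was the COPII coat gene Sec31a (0.28 ± 0.098).

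Of the ER stress sensors and regulators, 5 of 19 were higher at 427 mg/kg-d and 0 lower, where 22.7% of all genes were called higher, with a median of 0.11. Atf3, a stress-induced transcription factor, rose most (2.04 ± 0.21, FDR 3.1e-08). Its mean log2 level was 0.98 in vehicle animals, 1.15 at 198, 2.32 at 313 and 3.02 at 427 mg/kg-d, and the vehicle maximum of 1.18 was below the minimum of 2.70 at 427 mg/kg-d. Creb3l3, which encodes the liver factor CREBH (0.62 ± 0.098, FDR 2.1e-05), and Ppp1r15a, which encodes the eIF2-alpha phosphatase subunit GADD34 (0.51 ± 0.15, FDR 0.0098), were also higher. The others, named after their values were seen, were Eif2s1, the eIF2-alpha gene (0.35), and Mbtps2, the site-2 protease that cleaves ATF6 (0.25). Of the ATF4 targets and amino acid response genes, 6 of 24 were higher and 1 lower, with a median of 0.20. Over all genes 22.7% were called higher and 7.33% lower. The higher ones included the lipoprotein receptor gene Vldlr (1.81 ± 0.31, FDR 4.6e-05), the hormone gene Fgf21 (1.13 ± 0.18, FDR 1.6e-05) and Cth, of cysteine synthesis (0.72 ± 0.15, FDR 0.00043). Ddit4, an inhibitor of mTORC1, was lower (-0.99 ± 0.16, FDR 2.8e-05). Vldlr, Fgf21 and Ddit4 were all low, with mean vehicle levels of 0.84, 0.46 and 1.46 on the log2 scale. Vldlr overlapped between the groups, with a vehicle maximum of 2.51 and a minimum of 1.87 at 427 mg/kg-d. Of the aminoacyl-tRNA synthetase list, 4 of 17 were higher at 427 mg/kg-d, where 22.7% of all genes were called higher. At 313 mg/kg-d 6 of 17 were, where 20.5% of all genes were. Gars (0.51 ± 0.12), the tRNA exporter Xpot (0.42 ± 0.093) and Sars (0.26 ± 0.086) led it at 427 mg/kg-d, followed by Kars (0.20), named after its value was seen. Under median-ratio scaling the 40 calls over the 6 lists, 18 higher and 22 lower, became 46 calls, 10 higher and 36 lower. Over all 11275 genes that scaling gave 1351 higher and 1492 lower.

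**Figure D4:**
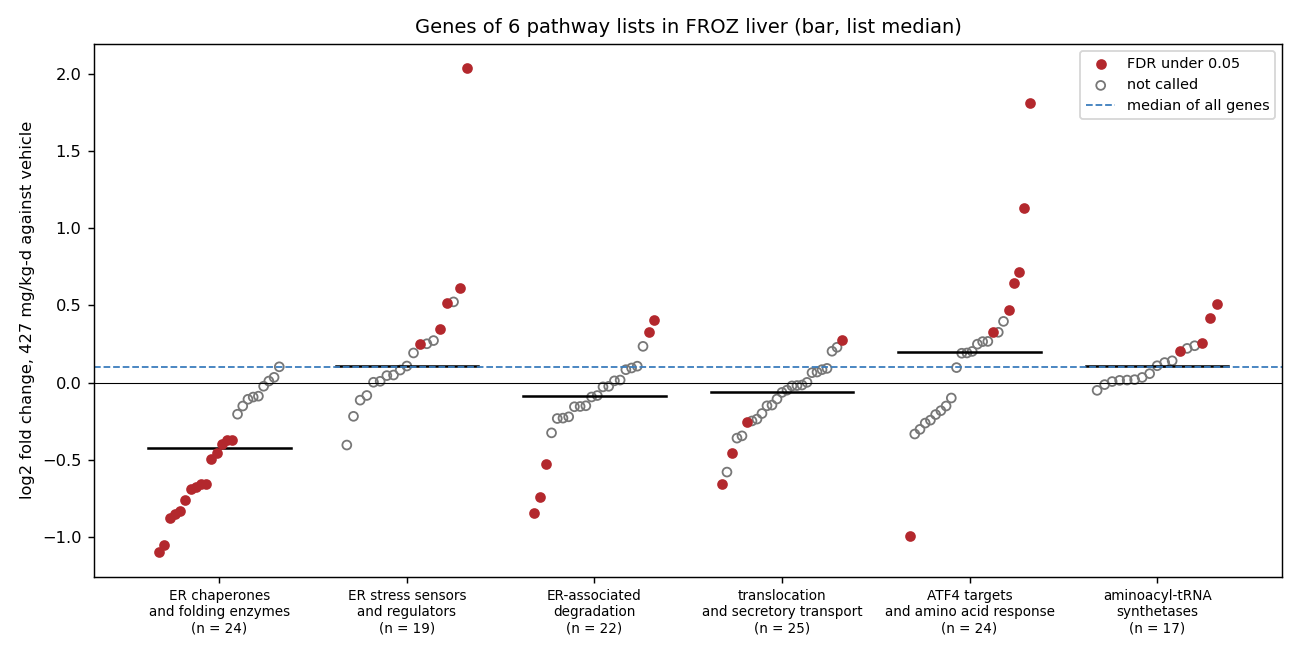
Log2 fold change at 427 mg/kg-d against the vehicle in FROZ (y axis) for each listed gene of 6 pathway lists (x axis). Filled points passed an FDR of 0.05, black bars are list medians and the dashed line is the median of all genes. The 24 chaperone and folding genes lie below the dashed line, the highest of them close to it, and the other lists straddle it.

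In FFPE at 427 mg/kg-d, 2 of 23 listed chaperone and folding genes were lower, 1 of 19 degradation genes was lower and 1 of 14 ATF4 target genes was higher, where 0.869% of all genes were called lower and 1.54% higher. The chaperone genes, named after their values were seen, were Hsp90b1, which encodes GRP94 (-1.17, FDR 0.00080), and Hyou1, a large ER chaperone gene (-1.20, FDR 0.010). The degradation gene was Syvn1 (-1.14, FDR 0.014) and the ATF4 target Cth (0.82, FDR 0.012). Of the genes named above, Creld2 was -0.95 (FDR 0.12), Pdia3 -0.74 (FDR 0.052) and Pdia6 -0.74 (FDR 1.00) in FFPE. Kdelr2 (0.17), Ppp1r15a (-0.36) and Sars (-0.25) had the sign opposite to that in FROZ. Sel1l was -0.25 and Ssr4 -0.15. Creb3l3, Nploc4, Ubxn4, Os9, Sec31a, Spcs3, Gars and Xpot kept their FROZ sign. None of the genes from Creld2 to Xpot was called in FFPE. Atf3, Vldlr, Fgf21 and Ddit4 were not listed. The median log2 fold change of the chaperone list in FFPE was -0.47, against 0.18 over all genes.

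The genes whose FROZ levels were most like those of the 5 members called at 427 mg/kg-d over all 24 libraries, doses included, were ranked by Pearson's r. For Hspa5 they were Syvn1 (r = 0.96), Manf (0.95) and Creld2 (0.95). For Pdia4 they were Hyou1 (0.96), Hsp90b1 (0.90) and Sdf2l1 (0.90), and for Sdf2l1 Hsp90b1, Pdia3 and Rpn1 (0.93 each). For Herpud1 they were Ces2a, a carboxylesterase gene (0.85), Dnajb5 (0.82) and Tk1 (0.82), and for Atf4 Cdk17, Pfdn4 and Ppp1r11 (0.84 each). Syvn1, Manf, Creld2, Hyou1, Hsp90b1, Pdia3 and Rpn1 all encode ER proteins. The median r of all genes with these 5 ranged from -0.15 to 0.085.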

How the data were processed

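TempO-Seq values of 24 FROZ and 24 FFPE mouse liver libraries were used, grouped by dose as the sample records give it. The authors aligned reads to mm10 with STAR 2.6 in Partek Flow, counted them by gene, dropped genes whose geometric mean did not exceed 1, and deposited log2(CPM + 1), scaled within each table. Reads per library were recovered from the step of low values. 95.7 to 97.2% (FROZ) and 81.1 to 94.6% (FFPE) of low values were whole within 0.05 reads. limma 3.58.1 in R 4.3.3 was fitted with a mean-dependent variance prior to all genes and all 24 libraries of a table, after a test on simulated data. Adjusted p-values are limma FDRs over all genes of a table. The FFPE minus FROZ test used the difference of each animal as the block. FROZ and FFPE libraries of an animal deviated together: the median r over 4815 genes was 0.128 within an animal and -0.0232 between animals, and 21 of 24 were best with their own. Alternatives changed the offset, prior, weights, groups in the fit, scaling and low-value filter and left out each animal. Named genes are the 10 members, the 3 largest called changes in each direction per list at 427 mg/kg-d, and the 3 genes most like each member called in FROZ at 427 mg/kg-d. Members and lists were chosen with earlier results of these data known. Samples of a group are separate animals. Sequences and figures used Python 3.11.15.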

Additional observations from a re-analysis of the deposited data

Results flagged for a closer look

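In 6 of 72 groups of 6 animals, 1 animal was far from the other 5 by Dixon's ratio, where chance gives about 1 in 20. In FROZ on the log2(CPM + 1) scale, Herpud1 in animal 52 (198 mg/kg-d) was 8.58, against 7.84 to 8.07 in the others. Atf4 was 6.48 in animal 53 (198 mg/kg-d), against 6.99 to 7.27, and 7.13 in animal 97 (427 mg/kg-d), against 7.28 to 7.37. Ddit3 was 2.38 in animal 49 (198 mg/kg-d), against 1.29 to 1.69. In FFPE, Trib3 was listed at 0 in animal 73 (313 mg/kg-d), against 4.05 to 5.97 in the others, and at 0 in animal 101 (427 mg/kg-d), against 4.70 to 6.56. Animal 53 also had high pancreatic marker RNA in FROZ, and its part in the Atf4 value was not tested.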

How the results depend on the processing

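Of 721 values of single genes under another offset, variance prior, weighting, choice of groups, scaling, filter or block or without animals 53, 78 and 101 together (a set chosen after seeing the data), 685 kept their direction and their side of the threshold, 6 lost a call, 18 gained one and 12 changed sign. Of 1176 with 1 animal left out, these counts were 1116, 15, 10 and 35. Calls changed sign in 0 cases. The number of called genes became 1 at 198 mg/kg-d in FROZ under median-ratio scaling and 1 among genes of at least 10 CPM, a filter that leaves 7 of the 10 genes and gave 3 at 313 mg/kg-d and 0 from 198 to 313 mg/kg-d. With only the 2 groups compared it was 2 from 198 to 313 mg/kg-d, 0 in FFPE at 313 mg/kg-d and 5 in FFPE at 427 mg/kg-d. It was 0 in FFPE at 313 mg/kg-d with a prior without trend and 5 in FFPE at 427 mg/kg-d with array quality weights. Without animals 53, 78 and 101 it was 3 from 198 to 313 mg/kg-d and 2 in FFPE at 313 mg/kg-d. In FROZ at 427 mg/kg-d it was 6, with Xbp1 added, under array quality weights, with only the 2 groups and among genes of at least 10 CPM, and at 313 mg/kg-d it was 4, without Atf4, under the prior without trend. The cause of these changes was not tested. These counts and those with 1 animal left out stand without the share of all genes called under the same setting, so they are descriptions. With 1 animal left out the number ranged from 0 to 1 at 198 mg/kg-d (1 without animal 3), from 3 (without animal 74) to 6 (without 7 or 78) at 313 mg/kg-d, from 5 to 5 at 427 mg/kg-d (without animal 7 Atf4 was lost and Xbp1 gained), from 1 to 2 (without 52 or 78) from 198 to 313 mg/kg-d and from 0 to 1 (without 73) from 313 to 427 mg/kg-d in FROZ. In FFPE it ranged from 0 to 0, 0 to 2 (without 78) and 3 to 3 at the 3 doses. Without the replicate block the FFPE minus FROZ test called 0 genes at each dose, and the block changed no call.

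The differences that changed sign were near 0 or widely spread, and none was called. Median-ratio scaling gave -0.0034 for Xbp1 and -0.013 for Ddit3 at 198 mg/kg-d and -0.10 for Xbp1 and -0.014 for Trib3 at 313 mg/kg-d in FROZ. For FFPE minus FROZ at 313 mg/kg-d it gave 0.082 for Hspa5, 0.082 for Sdf2l1 and 0.12 for Herpud1, and an offset of 5 CPM gave 0.023 for Herpud1. Array weights gave 0.16 for Atf4 in FFPE at 313 mg/kg-d. Without animals 53, 78 and 101, Dnajb9 was 0.058 from 313 to 427 mg/kg-d, Trib3 0.32 in FFPE at 427 mg/kg-d and Sdf2l1 0.082 for FFPE minus FROZ at 198 mg/kg-d. With 1 animal left out in FROZ, Xbp1 ranged from -0.045 to 0.22 and Ddit3 from -0.093 to 0.13 at 198 mg/kg-d, Xbp1 from -0.085 to 0.12 and Trib3 from -0.068 to 0.25 at 313 mg/kg-d, Xbp1 from -0.19 to 0.082 from 198 to 313 mg/kg-d, and Herpud1 from -0.077 to 0.18 from 313 to 427 mg/kg-d. In FFPE, Atf4 ranged from -0.20 to 0.17 and Trib3 from -1.15 to 0.045 at 313 mg/kg-d, and Trib3 from -0.99 to 0.32 at the highest dose. For FFPE minus FROZ, Sdf2l1 ranged from -0.29 to 0.082 at the lowest dose. At the middle dose the ranges were -0.18 to 0.014 for Hspa5, -0.49 to 0.0042 for Pdia4, -0.20 to 0.18 for Sdf2l1, -0.17 to 0.35 for Herpud1 and -1.25 to 0.11 for Trib3. Depth limits Ddit3, Trib3 and Asns, where 3 reads were 0.305 to 0.449 CPM in FROZ and 0.499 to 1.64 CPM in FFPE.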
